A study of Mus musculus with 8 samples.

Results

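The 38 genes described here carry the interferon response and MHC class I antigen presentation in mouse pancreatic islets. They are 5 transcription factors (Irf1, Irf7, Irf9, Stat2 and Nlrc5), 2 RNA sensors (Ifih1 and Dhx58), 19 antiviral effectors with the ISG15 system (Ifit1, Ifit2, Ifit3, Isg15, Usp18, Oas1a, Oas2, Oasl2, Mx1, Mx2, Rsad2, Bst2, Ifitm3, Xaf1, Rtp4, Parp14, Ifi27, Ifi35 and Ifi44), 5 interferon-inducible GTPases (Gbp2, Gbp3, Gbp7, Igtp and Iigp1) and 7 genes of MHC class I presentation (Psmb8, Psmb9, Tap1, Tap2, B2m, H2-K1 and H2-D1). They were chosen by gene symbol, and all 38 were matched by their Ensembl identifiers to a row among the 53012 of the count table. Islets came from 8 mice aged 17 months, each sequenced as its own library. The 4 βIgf1r mice (labelled CTRL: M148, M151, M152 and M153) carried the floxed Igf1r allele on both chromosomes, no Cre (Ins1-CreERT2-/- Igf1r flox/flox), and received corn oil. The 4 βIgf1rKD mice (labelled KD: M145, M146, M149 and M150) carried the same floxed alleles with 1 copy of the inducible Cre (Ins1-CreERT2+/- Igf1r flox/flox) and received tamoxifen at 0.075 mg per g of body weight in 5 daily intraperitoneal injections. Islets were collected 7 days after the last injection. Both groups held males and females, which were not marked mouse by mouse. Cre and tamoxifen came together in 1 group, so that Cre, the drug and the loss of Igf1r cannot be told apart in this comparison. The study's methods place the Cre under a rat insulin promoter, while the genotype names Ins1. Recombination removes exon 3 of Igf1r, the receptor of insulin-like growth factor 1, and is directed to β-cells, whereas the RNA was taken from whole islets.

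Interferons are cytokines that cells release on sensing viral or misplaced nucleic acid. Type I and type III interferons act through the factor ISGF3, which contains STAT2 and IRF9 and binds the interferon-stimulated response element (ISRE) in front of antiviral genes, and interferon gamma acts at gamma-activated sites (GAS). In islets this program is known for its part in autoimmune diabetes, where β-cells raise MHC class I molecules and present peptides to cytotoxic T cells.

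The ISRE is the sequence feature that ties many of these genes together, and windows from promoters that carry its letters are shown for a transcription factor (Stat2), 4 antiviral genes (Rsad2, Isg15, Bst2 and Ifit1) and the light chain of MHC class I (B2m). Capitals mark the letters GAAANNGAAA, or their reverse complement TTTCNNTTTC, and any overlapping repeat of them; the 15 bases on each side are in lower case. All windows run 5′ to 3′ along the gene's own strand and come from RefSeq on GRCm38.p6.
Rsad2 (chr12:26456548-26456587, - strand): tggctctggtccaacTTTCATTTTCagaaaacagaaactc
Stat2 (chr10:128270261-128270300, + strand): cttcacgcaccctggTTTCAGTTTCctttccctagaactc
Isg15 (chr4:156200860-156200911, - strand): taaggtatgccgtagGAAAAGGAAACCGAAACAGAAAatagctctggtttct
Bst2 (chr8:71537572-71537617, - strand): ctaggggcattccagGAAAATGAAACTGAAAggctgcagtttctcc
Ifit1 distal match (chr19:34640770-34640809, + strand): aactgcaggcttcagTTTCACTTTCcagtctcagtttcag
Ifit1 proximal match (chr19:34640789-34640828, + strand): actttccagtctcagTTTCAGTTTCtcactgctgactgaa
B2m (chr2:122147533-122147572, + strand): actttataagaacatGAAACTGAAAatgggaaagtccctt
In Isg15 the letters repeat into 1 run of 22 bases, and in Bst2 into a run of 16. The capitals end 110 bases before the start of Rsad2, 212 before that of Stat2, 129 before that of B2m, 114 before that of Bst2 and 56 before that of Isg15. The distal Ifit1 match ends 94 bases before its start and the proximal match 75 bases before it.

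Of the 38 genes, 27 had a promoter entry, and 12 of these 27 (44.4%) held the ISRE letters on either strand in the 250 bases before the start: B2m, Bst2, Gbp2, Gbp3, Gbp7, Ifit1, Ifit3, Igtp, Isg15, Oas1a, Rsad2 and Stat2. The same letters stood before 936 of all 27025 genes with an entry (3.46%). They also stood before 35 of 130 other interferon and MHC pathway genes with an entry (26.9%). The GAS letters TTCNNNGAA, read on both strands, were found in 7 of the 27 (25.9%), namely Bst2, Gbp7, Ifit2, Igtp, Irf1, Oas1a and Psmb8. They were found in 2197 of all 27025 genes (8.13%) and in 18 of the 130 other pathway genes (13.8%). Matches to the 2 motifs overlapped in 1 of the members' promoters. Bst2, Gbp7, Igtp and Oas1a held both sets of letters. A match of letters is a description of the promoter and not a measured binding site.

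Library totals ran from 21633925 to 31202015 counts over the control mice and from 23825864 to 42391106 over the knockdown mice. Counts were scaled to a common library size with normalization factors and are given as CPM, and 15474 genes passed the filter on low counts, all 38 members among them. Igf1r itself was at 53.6 ± 7.21 CPM against 50.7 ± 4.996 CPM (mean ± SD, n = 4 mice each), a log2 fold change of -0.080 with a standard error (SE) of 0.11 (exact two-sided permutation test p = 0.543); gene-level counts do not separate exon 3. Summed β-cell markers were at 146017 to 202739 CPM in βIgf1r and 127130 to 187633 CPM in βIgf1rKD islets. Xist counts split the mice unevenly over the groups. They were 7564 to 13694 in the βIgf1r mouse M151 and the βIgf1rKD mice M145, M146 and M150. They were 28 to 252 in the βIgf1r mice M148, M152 and M153 and the βIgf1rKD mouse M149. A difference that goes with Xist is therefore partly mixed with the group, and M151 and M149 each differed from the rest of their group. Summed acinar markers ran from 20637 to 205147 CPM in βIgf1r and from 45162 to 250241 CPM in βIgf1rKD islets, with 12 of 12 higher in the latter and none at an unadjusted p under 0.05. Immune cell markers were uneven as well. In M151, the summed 14 lymphocyte markers stood at 50.2 CPM against 6.07 to 13.0 CPM in the other 7 mice, and M151 had 546 counts of Ptprc, the pan-leukocyte antigen CD45, against 110 to 195. The lymphocyte markers Cd3d, Cd8b1, Ncr1 and Klrb1c were at 0 in at least 1 mouse, and 4 of the 14 passed the filter, 1 higher and 3 lower in βIgf1rKD islets, none at an unadjusted p under 0.05. In M149 the summed 14 macrophage markers stood at 374 CPM, and over the groups this sum ran from 150.8 to 209 CPM in βIgf1r and from 173 to 374 CPM in βIgf1rKD islets. No macrophage marker was at 0 in any mouse. All 14 macrophage markers were higher in βIgf1rKD islets, 4 of them at an unadjusted p under 0.05 (median log2 fold change 0.56).

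Levels were compared between genes as CPM per kilobase of merged exons, averaged over the 8 mice. The 3 genes that build the MHC class I molecule stood far above the rest. B2m was at 119.8, H2-K1 at 118 and H2-D1 at 111 CPM per kb, the highest of which lay at the 98.7 percentile of the 15294 genes with a length. Next came Ifitm3, a membrane protein that blocks virus entry, at 20.1 and Ifi27, a small membrane protein, at 18.1 CPM per kb. Irf1 (8.68), Tap2 (8.34), Ifi35 (7.90) and Bst2 (7.37) followed. At the other end, Nlrc5 (0.223), Oas2 (0.187) and Mx1 (0.161) were the lowest. The members' median was 1.90 CPM per kb, below the 2.98 CPM per kb over all genes. Most of the antiviral genes were thus expressed at a low level, next to abundant class I heavy and light chains.

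**Figure D1:**
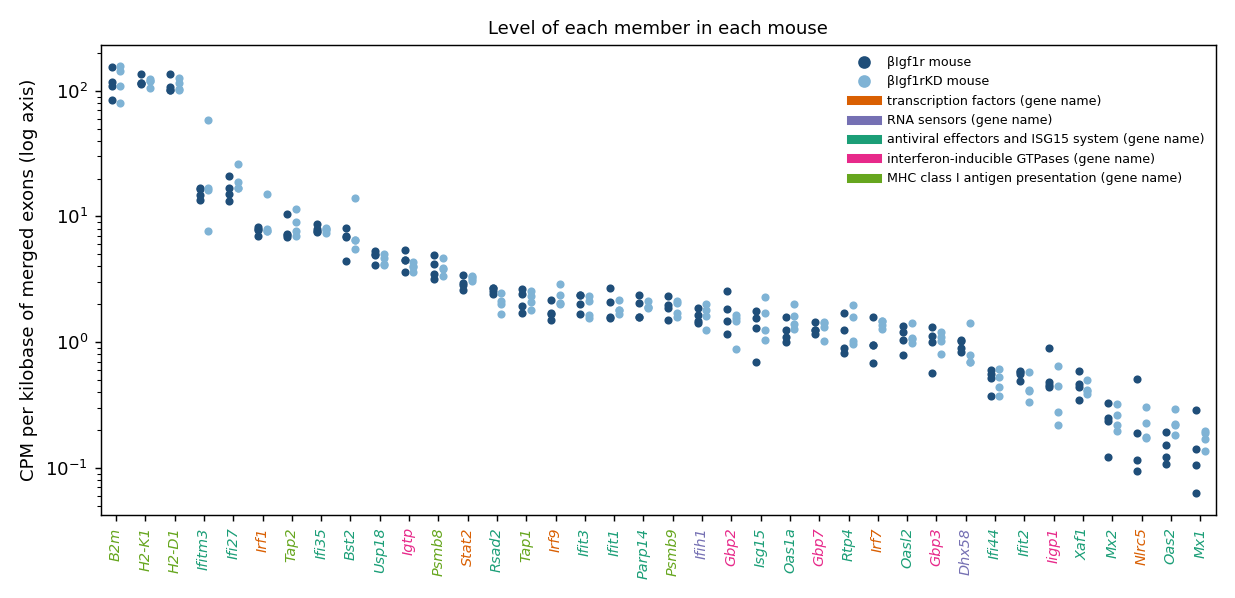
Level of each of the 38 genes in CPM per kilobase of merged exons on a log axis, with 1 dot per mouse (dark blue βIgf1r, light blue βIgf1rKD). Genes are ordered from the highest to the lowest level, and the colour of the gene name marks its role. B2m, H2-K1 and H2-D1 sit above 100 CPM per kb, and Nlrc5, Oas2 and Mx1 sit lowest.

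Counts behind these levels ran from 5 in a mouse to 12435, and 20 of the 38 members had at least 100 counts in every mouse. Deposited counts were estimates that can split a read between transcripts. They were whole numbers (within 0.001) in every mouse for 17 members, and in no mouse for Ifit3, Oas1a, Gbp7, Igtp, H2-K1 and H2-D1, whose reads were thus shared with similar or overlapping genes and whose values are less certain.

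To ask whether lowering Igf1r in β-cells went along with a different interferon program, βIgf1rKD islets were compared with βIgf1r islets across all genes with edgeR's quasi-likelihood test. Irf9 and Oas2 were higher and Rsad2 was lower at an unadjusted p under 0.05, which makes 3 of 38 members (7.89%) against 637 of 15474 genes tested (4.12%). By direction, 2 of 38 were called higher (2.23% of all genes) and 1 of 38 lower (1.89% of all genes). No member passed after Benjamini-Hochberg adjustment over all genes in edgeR, where the smallest adjusted p of a member was 0.987. Across the whole table the same test called 0 genes at an adjusted p under 0.05 (637 at an unadjusted p under 0.05), DESeq2 called 8 (0.0517%) and limma-voom 1 (0.00646%), and neither called a member.

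The fitted log2 fold change was positive for 22 members and negative for 16. Its median was 0.03 over the members and 0.01 over all genes tested. In none of the 38 members did the 4 βIgf1rKD mice all lie above or all below the 4 βIgf1r mice, a separation seen in 344 of all genes (2.22%). The median pooled SD within a group was 0.28 log2 CPM over the members and 0.20 over all genes. It was 0.22 over the other interferon and MHC pathway genes tested. The members also stood lower, at a median of 1.90 against 2.98 CPM per kb, and low counts widen this spread. Genes of like level were not compared, so the wider spread cannot be read as a trait of the members. The islets are a mixture of cell types, and in bulk RNA fewer cells of a type and less RNA per cell cannot be told apart.

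**Figure D2:**
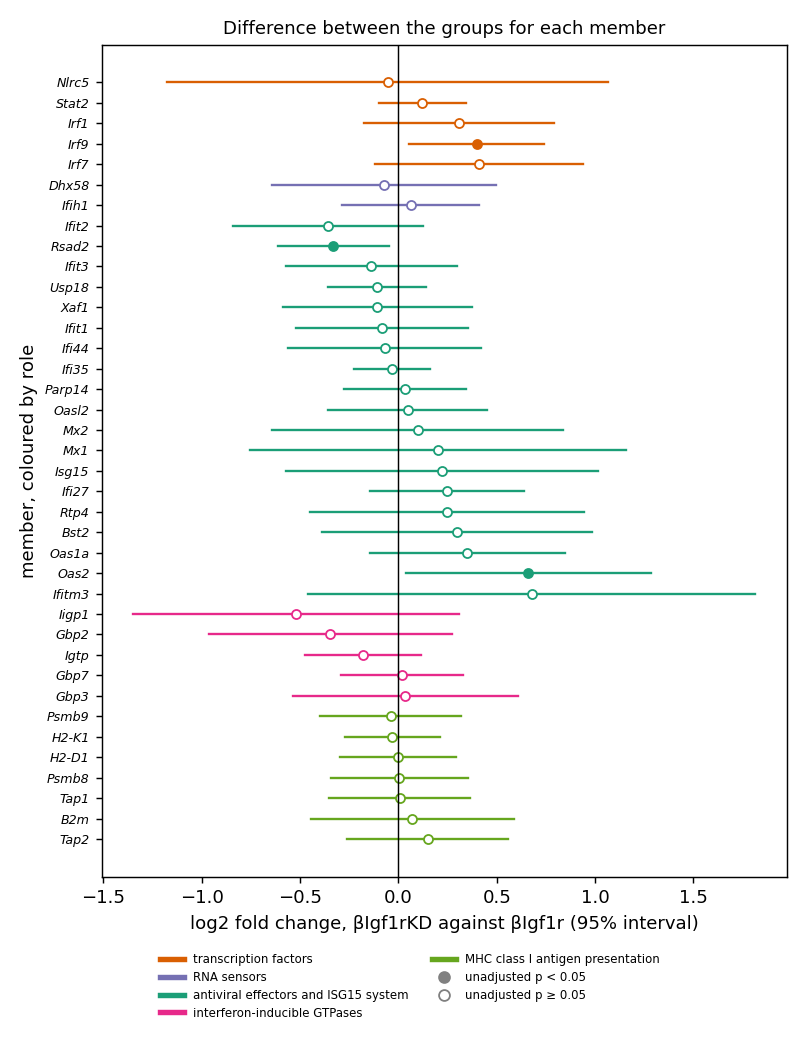
Log2 fold change (βIgf1rKD over βIgf1r, 4 mice each) of the 38 genes with 95% intervals, grouped by role, filled where the unadjusted edgeR p was under 0.05. The filled points are Irf9, Oas2 and Rsad2, and the intervals of the other 35 genes include 0.

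Of the 5 transcription factors of the response, 4 had a positive log2 fold change, with a median of 0.31 and 1 gene called (4.12% of all genes). Irf9, the DNA-binding subunit of ISGF3, lies on chromosome 14, 55603571 to 55610030 of GRCm38. It stood at 9.26, 11.6, 9.08 and 8.10 CPM in the βIgf1r mice M148, M151, M152 and M153 and at 15.6, 10.7, 12.8 and 11.0 CPM in the βIgf1rKD mice M145, M146, M149 and M150, an order kept for the values below. M145 and M149 were above every control mouse, while M146 and M150 lay between the control M151 and the other 3 controls. The means were 9.503 ± 1.47 CPM against 12.5 ± 2.24 CPM, a log2 fold change of 0.40 (SE 0.15, 95% interval 0.054 to 0.74, edgeR unadjusted p = 0.0278), and the exact two-sided permutation test gave p = 0.0857, where the smallest p that 4 against 4 mice allow is 0.0286. The call was lost when single mice were left out: leaving out M148, M152, M153, M145 or M149 gave edgeR unadjusted p = 0.0605, 0.0599, 0.0767, 0.0845 and 0.0522, with the log2 fold change down to 0.28 without M145. With the macrophage marker score as a covariate it was 0.34 (unadjusted p = 0.0799), and with the endothelial score 0.088 (unadjusted p = 0.775). The endothelial score did not overlap between the groups, at 0.034 to 1.33 in βIgf1r and -0.86 to -0.37 in βIgf1rKD islets. A fit with it can hardly tell the score and the group apart. Irf9 overlaps Rnf31 on the same strand, and its estimates were not whole in 2 of 8 mice.

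Irf7, the factor that amplifies interferon production, was at 5.99, 3.56, 3.60 and 2.56 CPM in βIgf1r and 5.52, 5.21, 5.53 and 4.78 CPM in βIgf1rKD islets. The 4 knockdown mice lay close together at 4.78 to 5.53 CPM, 3 control mice lay below them, and the control M148 was the highest of all. The log2 fold change was 0.41 (SE 0.24, edgeR unadjusted p = 0.113), and it was 0.69 (unadjusted p = 0.00405) without M148 and 0.25 (unadjusted p = 0.264) without M153. Irf1, a factor induced by interferon gamma and cytokines, was at 31.6, 31.0, 32.9 and 27.8 CPM and 60.4, 31.6, 30.5 and 30.3 CPM. Only M145 left the narrow range of 27.8 to 32.9 CPM held by the other 7 mice. The log2 fold change of 0.31 (SE 0.22, edgeR unadjusted p = 0.188) became -0.0021 without that mouse. In M145 Irf9 was also at its highest.

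Stat2, the partner of IRF9 in ISGF3 and a carrier of the ISRE letters shown above, ran from 15.4 to 20.4 CPM, with a log2 fold change of 0.12 (SE 0.098). Its p went from 0.246 to 0.0490 when M151 was left out. Nlrc5, the transactivator of MHC class I genes, was at 0.985, 4.29, 1.602 and 0.806 CPM in βIgf1r and 2.57, 1.4996, 1.92 and 1.46 CPM in βIgf1rKD islets. M151 alone held the top value, and the other 3 control mice reached at most 1.602 CPM. The log2 fold change was -0.056 (SE 0.50) with all mice and 0.70 (edgeR unadjusted p = 0.0644) without M151. M151 was also the mouse with the raised lymphocyte markers, whose part in the Nlrc5 value was not tested beyond the fit with that score as a covariate, which gave 0.13. It was highest too for 5 of 5 non-β endocrine markers and 4 of 6 leukocyte and dendritic cell markers tested. Their sums were 45098 and 57.2 CPM there, and 15090 to 34406 and 13.6 to 27.6 CPM in the other mice. The part of these cells in the values of M151 was not tested.

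The RNA sensors showed no difference that passed the test. Ifih1, which encodes MDA5 and detects long double-stranded RNA, was at 11.5, 15.3, 11.96 and 13.5 CPM in βIgf1r and 14.7, 10.2, 13.1 and 16.4 CPM in βIgf1rKD islets. Its lowest and highest values were both in knockdown mice, M146 and M150, and the log2 fold change was 0.062 (SE 0.15, edgeR unadjusted p = 0.698). Dhx58, which encodes the regulator LGP2, was at 3.33, 3.38, 2.71 and 2.94 CPM and 2.29, 2.57, 4.66 and 2.27 CPM. The knockdown mouse M149 was highest while the other 3 knockdown mice were below every control mouse. That gave a log2 fold change of -0.073 (SE 0.25, edgeR unadjusted p = 0.779) with all mice and -0.38 (unadjusted p = 0.0661) without M149.

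Among the 19 antiviral effectors, 11 were positive and 8 negative, with a median of 0.05. Of them, 1 was called higher (2.23% of all genes) and 1 lower (1.89% of all genes). Oas2, an oligoadenylate synthetase that activates RNase L, lies on chromosome 5, 120730333 to 120749853, in the same cluster as Oas1a. It stood at 0.852, 0.546, 0.676 and 0.474 CPM in βIgf1r and 0.982, 0.9997, 1.31 and 0.814 CPM in βIgf1rKD islets. The knockdown mice M145, M146 and M149 were above every control mouse, and M150 was just under the highest control, M148. The means were 0.637 ± 0.166 CPM against 1.03 ± 0.205 CPM, a log2 fold change of 0.66 (SE 0.28, 95% interval 0.036 to 1.29, edgeR unadjusted p = 0.0403, exact permutation p = 0.0571). Oas2 is a gene of low abundance, at 10 to 33 counts per library. Its edgeR p exceeded 0.05 when M151, M152, M153, M145, M146 or M149 was left out (0.0904, 0.0671, 0.102, 0.0652, 0.0656 and 0.112), and DESeq2 gave 0.0872.

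Rsad2, the radical SAM enzyme viperin that stops viral RNA synthesis, lies on chromosome 12, 26442746 to 26456452. It was at 11.7, 10.4, 11.7 and 11.0 CPM in βIgf1r and 10.7, 7.25, 9.14 and 8.66 CPM in βIgf1rKD islets. The control mice lay between 10.4 and 11.7 CPM, 3 knockdown mice were below all of them, and M145 alone overlapped. With means of 11.2 ± 0.631 CPM against 8.94 ± 1.43 CPM, the log2 fold change was -0.33 (SE 0.13, 95% interval -0.61 to -0.048, edgeR unadjusted p = 0.0263, exact permutation p = 0.0571). Leaving out M148, M152, M146 or M150 gave edgeR unadjusted p = 0.0632, 0.0577, 0.0585 and 0.0599, and leaving out M145 gave a log2 fold change of -0.43 (unadjusted p = 0.00618). Of the 3 called members, Rsad2 kept its call most often, in 14 of 20 alternative settings, against 11 for Irf9 and 8 for Oas2. Each of the 3 had the same direction in all 20. Rsad2 and Oas2, both known targets of ISGF3, thus lay on opposite sides.

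Ifitm3 had the largest fitted fold change of the list and rested on 1 mouse. It was at 11.2, 9.09, 11.4 and 10.05 CPM in βIgf1r and 11.4, 5.21, 39.5 and 11.0 CPM in βIgf1rKD islets. M149 was more than 3 times any other mouse, while M146 was the lowest of the 8. The log2 fold change of 0.68 (SE 0.51, edgeR unadjusted p = 0.213) turned to -0.18 (unadjusted p = 0.479) without M149. Bst2, the membrane protein tetherin that holds budding virus on the cell, followed the same mouse, at 12.7 CPM in M149 and 3.98 to 7.33 CPM in the other 7. Its log2 fold change was 0.30 (SE 0.31) with M149 and -0.099 without it. M149 also had the highest value of all 14 macrophage markers, whose part in the Ifitm3 and Bst2 values was not tested beyond the fit with that score as a covariate, which gave -0.43 for Ifitm3 and -0.13 for Bst2. In M149, 7 of 9 stromal markers, 4 of 5 duct markers tested and 7 of 12 acinar markers were also at their highest. The summed stromal markers stood at 367 CPM there and at 112 to 234 CPM in the other 7 mice, and the summed duct markers at 281 CPM and 179.7 to 227 CPM. The part of these cells in the values of M149 was not tested.

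The IFIT proteins, which bind viral RNA ends, are encoded side by side on chromosome 19, and all 3 had negative log2 fold changes: -0.084 (SE 0.19) for Ifit1, -0.36 (SE 0.22) for Ifit2 and -0.14 (SE 0.19) for Ifit3. None passed the test. Ifit2 was at 2.18, 2.33, 1.92 and 2.27 CPM in βIgf1r and 1.59, 1.32, 2.26 and 1.63 CPM in βIgf1rKD islets. All knockdown mice but M149 were below every control mouse, and without M149 the log2 fold change of Ifit2 was -0.52 (edgeR unadjusted p = 0.0322). Of the other oligoadenylate synthetases on chromosome 5, Oas1a had a log2 fold change of 0.35 (SE 0.22, unadjusted p = 0.145) and Oasl2 of 0.046 (SE 0.18), and neither passed the test. The values of Oas1a are uncertain, since its estimates were not whole in any mouse.

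Isg15, the ubiquitin-like protein that is attached to other proteins during the response, was at 0.52 to 1.74 CPM (log2 fold change 0.22, SE 0.35). Usp18, the protease that removes ISG15 and damps receptor signaling, was far more even, at 11.4 to 14.8 CPM (log2 fold change -0.11, SE 0.11). The GTPases Mx1 and Mx2, which trap viral nucleocapsids, were at 0.24 to 1.09 and 0.437 to 1.175 CPM, with log2 fold changes of 0.20 (SE 0.43) and 0.097 (SE 0.33). At that level a change of this size could not be resolved.

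The remaining effectors stayed within their spread. Ifi27 had a log2 fold change of 0.25 (SE 0.18) and was highest in M149, at 38.2 CPM, as was Rtp4, a chaperone of membrane receptors, at 4.22 CPM (log2 fold change 0.25, SE 0.31). Without M149 the log2 fold change was 0.081 for Ifi27 and 0.035 for Rtp4. Parp14, an ADP-ribosyltransferase, was highest in M151 at 22.1 CPM (log2 fold change 0.032, SE 0.14). Xaf1, a promoter of apoptosis, and Ifi44 had log2 fold changes of -0.11 (SE 0.21) and -0.071 (SE 0.22). Ifi35, a partner of NMI, had the smallest SE of the antiviral genes, at 12.7 to 15.2 CPM (log2 fold change -0.033, SE 0.086).

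**Figure D3:**
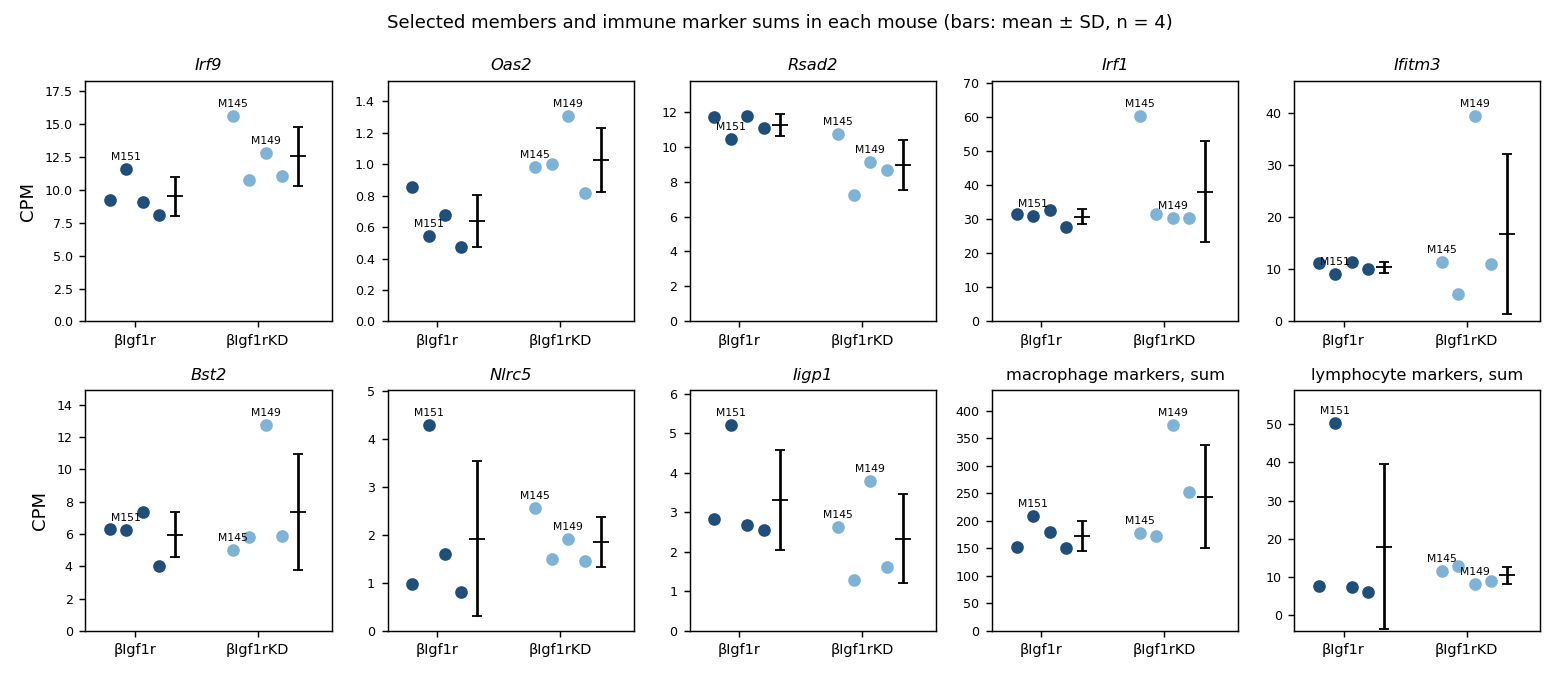
CPM of Irf9, Oas2, Rsad2, Irf1, Ifitm3, Bst2, Nlrc5 and Iigp1 in each mouse (dots) with the mean ± SD of each group (4 mice), and the summed CPM of 14 macrophage and 14 lymphocyte markers. M149 stands apart for Ifitm3, Bst2 and the macrophage sum, M151 for Nlrc5, Iigp1 and the lymphocyte sum, and M145 for Irf1.

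Interferon-inducible GTPases, which coat and break open the vacuoles of intracellular pathogens, had 2 positive and 3 negative log2 fold changes, a median of -0.18 and no member called. Iigp1 was at 2.82, 5.202, 2.67 and 2.56 CPM in βIgf1r and 2.62, 1.29, 3.79 and 1.63 CPM in βIgf1rKD islets. M151 was highest, the knockdown mice M146 and M150 were the lowest 2, and the groups overlapped. Its log2 fold change of -0.52 (SE 0.37, edgeR unadjusted p = 0.192) was the lowest of the list and became -0.22 (unadjusted p = 0.555) without M151 and -0.86 (unadjusted p = 0.0366) without M149. Gbp2 was at 3.67, 6.44, 4.59 and 2.94 CPM and 3.88, 2.21, 4.14 and 3.67 CPM, again with M151 on top and M146 at the bottom (log2 fold change -0.35, SE 0.28, edgeR unadjusted p = 0.239). Without M151 it was -0.11 (unadjusted p = 0.680), and without M146 -0.18 (unadjusted p = 0.496). Igtp, the most abundant of the 5 per kb at 4.25, was at 9.18, 10.8, 7.37 and 9.15 CPM and 8.84, 7.25, 8.10 and 8.06 CPM (log2 fold change -0.18, SE 0.13, edgeR unadjusted p = 0.202). M151 led here too, and without it the value was -0.088 (unadjusted p = 0.511). Igtp overlaps Irgm2 on the same strand, and its counts are therefore uncertain. Gbp3 and Gbp7, neighbours of Gbp2 on chromosome 3, had log2 fold changes of 0.035 (SE 0.26) and 0.018 (SE 0.14).

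MHC class I presentation had 4 positive and 3 negative log2 fold changes between -0.040 and 0.15, a median of 0.0044 and no member called. The 2 heavy chains had the smallest SE of the group. H2-K1 was at 331, 337, 399 and 337 CPM in βIgf1r and 349.6, 353, 364 and 307 CPM in βIgf1rKD islets, and H2-D1 at 259.7, 276, 354 and 260.1 CPM and 266, 327, 296 and 259 CPM. M152 was highest for both. The log2 fold change was -0.031 (SE 0.11, 95% interval -0.27 to 0.21) for H2-K1 and -0.0023 (SE 0.13, 95% interval -0.30 to 0.29) for H2-D1. Reads of these highly similar genes were split between transcripts in every mouse, which limits the separation of one from the other.

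B2m, the invariant light chain, varied more than its partners, at 94.6, 133, 72.7 and 102 CPM in βIgf1r and 124, 68.7, 135 and 94.1 CPM in βIgf1rKD islets. Its highest values were in M149 and the control M151, its lowest in M146 and the control M152, and the log2 fold change was 0.071 (SE 0.23, 95% interval -0.44 to 0.59, edgeR unadjusted p = 0.764). Tap1 and Tap2, which form the peptide transporter, lie with Psmb8 and Psmb9 in the class II region of chromosome 17. Tap2 was at 25.8, 27.4, 39.7 and 26.8 CPM and 28.9, 43.3, 33.9 and 26.7 CPM, with M146 and the control M152 above the other 6 mice (log2 fold change 0.15, SE 0.18, edgeR unadjusted p = 0.436). Tap1 ran from 9.34 to 14.4 CPM (log2 fold change 0.0066, SE 0.16). Psmb8 and Psmb9, catalytic subunits of the immunoproteasome, ran from 10.8 to 16.7 and 5.48 to 8.51 CPM, with log2 fold changes of 0.0044 (SE 0.16) and -0.040 (SE 0.16). Psmb8, Psmb9 and Tap1 all peaked in M151. Per kb of exons, Psmb8 (3.94) and Psmb9 (1.89) were far below their constitutive counterparts Psmb5 (48.8) and Psmb6 (34.2).

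The highest value of 21 of the 38 members was in 1 of 2 mice. The control mouse M151 was highest for 12 members (Stat2, Nlrc5, Ifit1, Ifit2, Mx1, Parp14, Gbp2, Igtp, Iigp1, Psmb8, Psmb9 and Tap1), and the knockdown mouse M149 for 9 (Dhx58, Isg15, Oas2, Oasl2, Bst2, Ifitm3, Rtp4, Ifi27 and B2m). M151 led 3 of the 5 GTPases and 3 of the 7 class I presentation genes, where M149 led 0 and 1. Of the 19 antiviral effectors M149 led 7 and M151 led 4. Over the other genes of the pathway, M151 was also highest for 9 of 10 MHC class II genes and 7 of 11 inducible GTPases tested. M149 was highest for 0 and 2 of these. The 2 mice were nearly equal over 51 other interferon-stimulated genes, with 14 highest in M149 and 13 in M151. At the low end, the control M153 was lowest for 17 members and the knockdown M146 for 9. These mice were picked out by these counts, and the shares of all genes highest or lowest in each mouse are not given here. Whether the pattern is particular to the members thus cannot be read from it. Lymphocyte and non-β endocrine markers were highest in M151, and macrophage, most stromal and most duct markers in M149. Their part in these patterns was not tested. Without both mice, a comparison added after seeing the data, Irf9 (0.49) and Rsad2 (-0.38) were the members at an unadjusted edgeR p under 0.05, against 4.93% of all genes. Oas2 was at 0.45 (unadjusted p = 0.192). In that comparison the βIgf1r mice had 43 to 252 Xist counts and the βIgf1rKD mice 7564 to 13694. Xist and group thus cannot be told apart there.

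**Figure D4:**
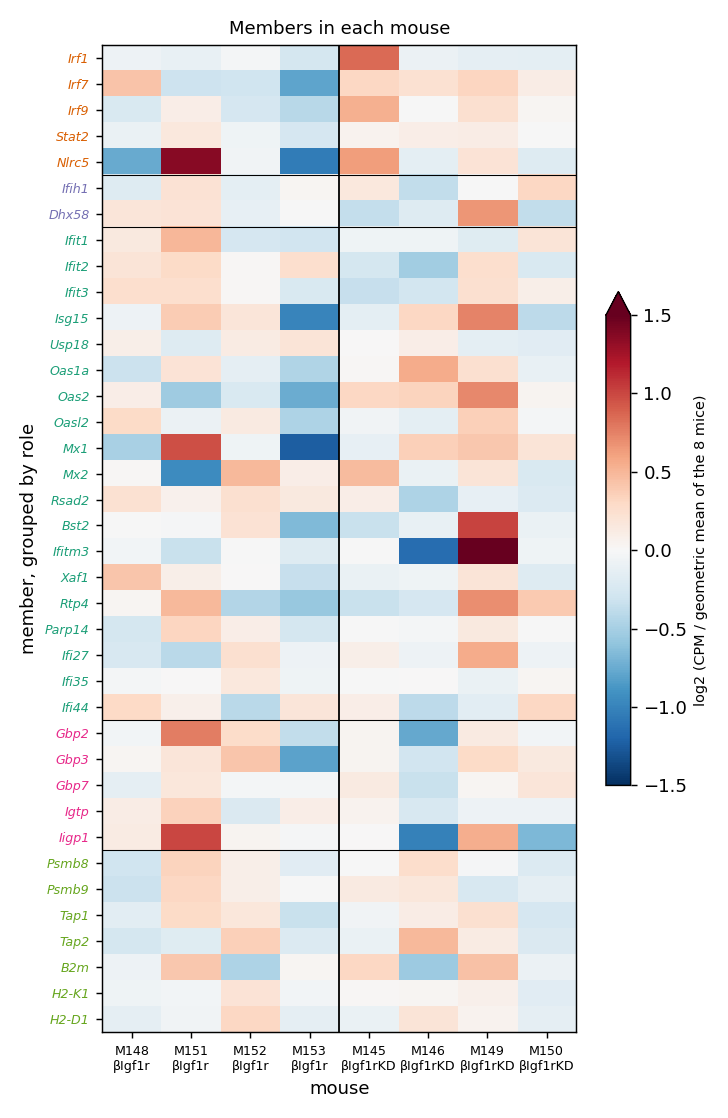
Log2 of each gene's CPM over its geometric mean across the 8 mice (columns, βIgf1r left and βIgf1rKD right), with the 38 genes in rows by role and a colour scale cut at ±1.5. The M151 column is high across the GTPases and the Psmb and Tap1 genes, and the M149 column is high for Ifitm3, Bst2 and Dhx58.

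Which members were called changed with the mice and with the adjustment for other cells, while the number stayed between 0 and 4. With M149 left out, the called members were Ifit2, Iigp1 and Rsad2, all lower in βIgf1rKD islets, against 3.72% of all genes called. With the macrophage score as a covariate they were Gbp2, Ifit2, Iigp1 and Rsad2, again all lower, against 4.86% of all genes. In that fit 14 of 38 members were positive. With Xist as a covariate they were Ifi27, Ifitm3 and Oas2, all higher, against 7.39% of all genes. With the endothelial score, Irf7 was called higher and Nlrc5, Psmb8 and Psmb9 lower, against 2.55% of all genes. The endothelial markers themselves were lower in βIgf1rKD islets in 11 of 11 cases, 6 at an unadjusted p under 0.05, with sums of 483 to 606 CPM in βIgf1r and 432 to 482 CPM in βIgf1rKD islets, and how far they bear on these calls was not tested. As the endothelial score separates the groups, the fit with it can hardly tell score and group apart. Without M152 no member was called, against 7.09% of all genes. Over all 20 alternatives 8 members had 1 direction throughout, Irf7, Irf9 and Oas2 higher and Ifit2, Rsad2, Gbp2, Igtp and Iigp1 lower, and 25 members were called in none.

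Other genes of the interferon and MHC pathways were taken from a list of 164, of which 142 passed the filter. Of these, 67 were positive and 75 negative, 12 (8.45%, against 4.12% of all genes) were at an unadjusted p under 0.05, with 7 higher and 5 lower, and none passed the adjustment in edgeR. In 7 of the 142, against 2.22% of all genes, the groups did not overlap (among them Ifngr2, Ticam1, Oas1c, Nmi, H2-T10 and H2-M3). Their median log2 fold change was -0.0098. Leaving out M145 or M149 gave 5 called genes, against 2.97% and 3.72% of all genes. Of the 12, only Ifngr2 and Oas1c had an unadjusted p under 0.05 in all 8 fits with 1 mouse left out, and 4 of the 12 did without M153. With the endothelial score as a covariate, which separates the groups, 15 of the 142 were called, against 2.55% of all genes. Ifi207 was the only 1 of the 12 among them (log2 fold change 1.67, unadjusted p = 0.0221), while Ifngr2 was at 0.41 (unadjusted p = 0.409) and Oas1c at -0.34 (unadjusted p = 0.434).

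Ligands came first in that list. None of the 11 interferon genes looked at (Ifnb1, Ifna1, Ifna2, Ifna4, Ifna5, Ifng, Ifnl2, Ifnl3, Ifnk, Ifne and Ifnz) passed the filter, and 9 were at 0 counts in every mouse. A count of 0 allows up to 3 counts per library, or 0.0708 to 0.139 CPM before the normalization factors, for counting error only. Ifng had 2 counts, both in M151, and Ifnz had 4 counts over 2 mice.

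Of the 11 genes of receptors and JAK-STAT signaling, 8 were positive and 1 was called (4.12% of all genes). Ifngr2, the second chain of the interferon gamma receptor, was at 8.30, 8.95, 9.43 and 8.86 CPM in βIgf1r and 21.99, 11.4, 14.5 and 9.99 CPM in βIgf1rKD islets. The groups did not overlap, and M145, the mouse with the highest Irf1, was far above the rest. The log2 fold change was 0.70 (SE 0.22, edgeR unadjusted p = 0.0108) and 0.43 (unadjusted p = 0.0146) without M145, and its estimates were not whole in any mouse. Socs3, an inhibitor of JAK kinases, was highest in M145 as well (log2 fold change 0.65, SE 0.28, unadjusted p = 0.0466), and was at 0.30 (unadjusted p = 0.158) without it.

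Among the sensors of nucleic acid, Tlr7, an endosomal sensor of single-stranded RNA encoded on the X chromosome, was at 0.319, 0.764, 0.249 and 0.142 CPM and 0.655, 0.678, 2.05 and 1.13 CPM, from 3 to 47 counts. M149 was highest, and the log2 fold change was 1.58 (SE 0.54, unadjusted p = 0.0159), or 1.15 (unadjusted p = 0.0534) without M149 and 0.92 (unadjusted p = 0.0551) with the macrophage score as a covariate. Its adaptor Myd88 had a log2 fold change of 0.23 (SE 0.095, unadjusted p = 0.0396), and kept its call in 3 of 8 fits with 1 mouse left out.

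Of 51 other interferon-stimulated genes, 1 was called higher (2.23% of all genes) and 4 lower (1.89% of all genes). Ifi207, a DNA-sensor family gene, was higher (log2 fold change 0.79, SE 0.33, unadjusted p = 0.0397), and was at 0.56 (unadjusted p = 0.128) without M149. Oas1c was lower, at 3.01, 2.33, 2.28 and 2.56 CPM against 2.01, 1.46, 1.44 and 1.73 CPM with no overlap of the groups (log2 fold change -0.62, SE 0.20, unadjusted p = 0.0119), on the side opposite to Oas2 of the same cluster on chromosome 5. Nmi, which binds STAT proteins, also had no overlap, at -0.25 (SE 0.096, unadjusted p = 0.0271). Its call was lost without M148, M152, M145 or M146 (edgeR unadjusted p = 0.0644, 0.0641, 0.0691 and 0.0569). Tnfsf10, the death ligand TRAIL, was at -0.27 (SE 0.10, unadjusted p = 0.0250), and Ifitm1, a relative of Ifitm3, at -0.92 (SE 0.38, unadjusted p = 0.0379). Without M153, Ifitm1 was at -0.55 (unadjusted p = 0.136). With 1 mouse left out, Ifi207 kept its call in 2 of 8 fits and Ifitm1 in 3. Tnfsf10 lost its call without M148 (unadjusted p = 0.0529), M153 (unadjusted p = 0.0542), M145 (unadjusted p = 0.0595) or M146 (unadjusted p = 0.0553), and was at -0.077 (unadjusted p = 0.713) with the endothelial score.

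Of 14 other class I genes, 12 were negative (7388 of 15474 over all genes), with a median of -0.13. Of these 14 genes, 1 was called lower (1.89% of all genes) and 1 higher (2.23% of all genes). H2-M3, which presents formylated peptides, was lower with no overlap of the groups (log2 fold change -0.27, SE 0.11, unadjusted p = 0.0364). H2-Q10, a secreted class I molecule, was higher (log2 fold change 0.54, SE 0.23, unadjusted p = 0.0398) with estimates that were not whole in any mouse. With 1 mouse left out, H2-Q10 kept its call in 1 of 8 fits and H2-M3 in 4. For H2-Q10, DESeq2 gave an unadjusted p of 0.0594 and limma-voom 0.0769. In the groups with no call, the smallest p belonged to Gbp4 among 11 other inducible GTPases (-0.49, SE 0.29, unadjusted p = 0.129), to Psmb10, the other immunoproteasome subunit, among 13 genes of peptide loading and the proteasome (0.35, SE 0.31, unadjusted p = 0.295), and to H2-Oa among 10 MHC class II genes (-0.96, SE 0.72, unadjusted p = 0.212). Without M152 Psmb10 was at 0.69 (unadjusted p = 0.0261), without M153 Gbp4 was at -0.71 (unadjusted p = 0.00927), and without M151 H2-Oa turned to 0.16. M151 was highest for H2-Oa and for 8 other class II genes.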

How the data were processed

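Islet RNA of 8 mice was sequenced with a stranded poly(A) kit, 1 library per mouse. The deposited table holds estimated counts per Ensembl gene, which the authors made from the reads. The submitters' processing notes name fastp (read trimming), kallisto (pseudoalignment) and GRCm38, with no versions; the transcript release is not given in the sources used here. Pseudoalignment splits reads among similar transcripts, so members of gene families share counts. Counts summed to 21633925 to 42391106 per mouse.

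Estimated counts were rounded to whole numbers. Of 53012 identifiers, 51906 were matched to a symbol. Coordinates and exon lengths came from GENCODE M21, which had an entry for 51992. Genes were filtered with filterByExpr (15474 left), scaled with TMM factors and fitted with edgeR 4.0.16 (glmQLFit, glmQLFTest; R 4.3.3), βIgf1rKD against βIgf1r without covariates, with Benjamini-Hochberg adjustment over all genes tested. A gene is called at an unadjusted p under 0.05, the study's threshold. Intervals are at 95%. Single genes were also tested with exact two-sided permutation of mean log2 CPM over the 70 assignments. The 8 mice are separate animals.

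The members and gene lists were chosen with earlier results of these data known. All 38 members are described. Full values are given for members at an unadjusted p under 0.05, for the 2 members of each role with the largest absolute fold change and for the most abundant of each role. From the other pathway genes, those at an unadjusted p under 0.05 are named, or else the smallest p of the role, except 1 gene that is not reported here; Stat2, Nlrc5, Bst2, Ifit2 and the remaining members got shorter accounts, and Psmb5 and Psmb6 were added after their values were seen. Promoter letters were searched in RefSeq windows on GRCm38.p6. Alternatives were RLE factors, DESeq2 1.42.0, limma-voom 3.58.1, no filter, at least 10 counts in every mouse, unrounded counts, Xist or acinar, endothelial or macrophage marker scores as covariates, a prior count of 0.5 in place of 2 for log2 CPM, and each mouse left out; a lymphocyte score and the joint removal of M149 and M151 were added after seeing the data. The scripts were tested on simulated counts. Figures were drawn with matplotlib 3.10.9.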

Additional observations from a re-analysis of the deposited data

Results flagged for a closer look

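Each group of 4 mice was examined for a mouse whose distance to its nearest neighbour took up more of the group's range in log2 CPM than Dixon's 95% limit for 4 values allows. This was done for 108 sets of 4 mice, of which 6 (5.56%) went past the limit; 5.4 are expected at 1 in 20. Irf1 in the βIgf1rKD mouse M145 was at 60.4 CPM, above the 30.3 to 31.6 CPM of the other 3 mice, and its gap took up a share of 0.940 of the range. Bst2 in the βIgf1rKD mouse M149 was at 12.7 CPM, above the 5.01 to 5.87 CPM of the other 3 mice, and its gap took up a share of 0.830 of the range. Iigp1 in the βIgf1r mouse M151 was at 5.202 CPM, above the 2.56 to 2.82 CPM of the other 3 mice, and its gap took up a share of 0.863 of the range. Tap2 in the βIgf1r mouse M152 was at 39.7 CPM, above the 25.8 to 27.4 CPM of the other 3 mice, and its gap took up a share of 0.868 of the range. H2-K1 in the βIgf1r mouse M152 was at 399 CPM, above the 331 to 337 CPM of the other 3 mice, and its gap took up a share of 0.902 of the range. Gbp4 in the βIgf1rKD mouse M146 was at 1.54 CPM, below the 2.18 to 2.32 CPM of the other 3 mice, and its gap took up a share of 0.846 of the range. M152 stood apart in this way for both Tap2 and H2-K1. The other mice named above also had the values of the marker lists given with the results: M151 the highest lymphocyte and non-β endocrine sums and M149 the highest macrophage, stromal, duct and acinar sums. Whether these bear on the distances was not tested.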

How the results depend on the processing

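The median over the members ran from -0.05 to 0.10 when each mouse was left out in turn. Its shift stayed under the spread between mice (pooled SD of 0.146 log2) in every alternative. With the endothelial or the macrophage score as a covariate the median lay below that range, with 14 of 38 members positive in each fit. The shift with the endothelial score came close to the spread between mice. Members at an unadjusted p under 0.05 numbered 0 to 3 without 1 mouse. Genes at an unadjusted p under 0.05, 637 with all mice, numbered 1098 without a filter, 1143 with Xist, 388 with the acinar score and 395 with the endothelial score as a covariate, and 383 to 1114 with 1 mouse left out; without M148 there were 383, without M152 1114, without M153 402 and without M146 960. Genes at an adjusted p under 0.05 numbered 8 with DESeq2, 1 with limma-voom, 1 with unrounded counts and 5 without M149 and M151. Other pathway genes called, 12 with all mice, numbered 15 with the endothelial score (1 of the 12 among them), 6 with the acinar score (5 of the 12) and 5 to 13 with 1 mouse left out. Of the 3 called members, none changed direction in any of the 20 alternatives. Log2 fold changes changed sign in several settings, that of Ifitm3, the largest among the members, included, and the cause was not tested. With endothelial marker score as a covariate, the sign turned for Irf1 (-0.0044), Stat2 (-0.10), Ifih1 (-0.13), Dhx58 (0.26), Ifit3 (0.068), Isg15 (-0.095), Usp18 (0.00081), Oas1a (-0.19), Mx1 (-0.93), Xaf1 (0.21), Parp14 (-0.42), Ifi44 (0.31), Gbp3 (-0.11), Gbp7 (-0.14), Psmb8 (-0.63), Tap1 (-0.39), Tap2 (-0.18) and B2m (-0.045). In the endothelial fit the score and the group can hardly be told apart. With limma-voom, the sign turned for Nlrc5 (0.19), Tap1 (-0.0056) and H2-D1 (0.0046). With acinar marker score as a covariate, the sign turned for Nlrc5 (0.027), Ifih1 (-0.015), Ifit1 (0.087), Mx2 (-0.11), Gbp3 (-0.059), Gbp7 (-0.061), B2m (-0.0064) and Psmb10 (-0.028). With lymphocyte marker score as a covariate, the sign turned for Nlrc5 (0.13), Psmb8 (-0.0082), Tap1 (-0.0010) and H2-D1 (0.00035). With both M149 and M151 left out, the sign turned for Nlrc5 (0.68), Ifit1 (0.14), Oasl2 (-0.10), Mx2 (-0.15), Bst2 (-0.079), Ifitm3 (-0.24), Ifi27 (-0.0072), Psmb9 (0.14) and H2-Oa (0.43). Xist counts and group cannot be told apart in that fit. With Xist as a covariate, the sign turned for Ifih1 (-0.0052), Dhx58 (0.028), Parp14 (-0.0044), Gbp7 (-0.019), Psmb8 (-0.067), H2-K1 (0.011), H2-D1 (0.034) and Igf1r (0.023). With macrophage marker score as a covariate, the sign turned for Ifih1 (-0.037), Oasl2 (-0.088), Bst2 (-0.13), Ifitm3 (-0.43), Rtp4 (-0.13), Parp14 (-0.066), Gbp3 (-0.15), Gbp7 (-0.078), Psmb9 (0.015), Tap1 (-0.074), B2m (-0.18) and H2-D1 (0.012). With 1 mouse left out, the following log2 fold changes crossed 0, given as lowest to highest: Irf1 -0.0021 to 0.40, Nlrc5 -0.30 to 0.70, Ifih1 -0.045 to 0.18, Dhx58 -0.38 to 0.036, Ifit1 -0.18 to 0.095, Isg15 -0.018 to 0.38, Oasl2 -0.080 to 0.16, Mx1 -0.036 to 0.72, Mx2 -0.12 to 0.30, Bst2 -0.099 to 0.44, Ifitm3 -0.18 to 0.98, Xaf1 -0.22 to 0.035, Parp14 -0.047 to 0.16, Ifi35 -0.063 to 0.015, Ifi44 -0.20 to 0.039, Gbp3 -0.16 to 0.19, Gbp7 -0.043 to 0.12, Psmb8 -0.090 to 0.13, Psmb9 -0.14 to 0.067, Tap1 -0.095 to 0.11, Tap2 -0.0083 to 0.31, B2m -0.072 to 0.23, H2-K1 -0.061 to 0.036, H2-D1 -0.071 to 0.11, H2-Oa -1.26 to 0.16. No member had an exact permutation p under 0.05 with a prior count of 2 or of 0.5. With at least 10 counts in every mouse Mx1 could not be fitted. No paired analysis was possible because no mouse number occurs in both groups. Depth limits Mx1, Mx2, Oas2 and Isg15, each near 1 CPM or below.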
